A study of Mus musculus with 14 samples.

Results

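Krüppel-like factors (KLFs) are DNA-binding proteins with zinc fingers at the C-terminus that recognise GC-rich and CACCC-type elements. Several of them act in the cascade that turns a preadipocyte into an adipocyte. KLF4, KLF5, KLF6, KLF9, KLF13 and KLF15 are known to promote this conversion at different stages, whereas KLF2, KLF3 and KLF7 are known to restrain it, and KLF10 is an early response gene of TGF-β signalling. Cyclic AMP drives adipogenesis through CREB, which binds the cAMP response element (CRE, with the half-site TGACG) and recruits the coactivator CRTC2 when CRTC2 enters the nucleus. TNFα opposes adipocyte function in part through NF-κB, of which p65 is the main transactivating subunit.

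The 10 genes described are Klf2, Klf3, Klf4, Klf5, Klf6, Klf7, Klf9, Klf10, Klf13 and Klf15, of 21853 mouse protein-coding genes with a coding start site in GENCODE M21. They were taken by their names from the known adipogenic KLFs and not by any measured value, though earlier results of these data were known. For each, every peak overlapping the gene body or the 50 kb on either side was collected from 12 ChIP-seq peak lists. A promoter was the stretch from 1000 bp upstream to 100 bp downstream of any start site of a protein-coding transcript. Coordinates are those of GRCm38 (mm10).

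The cells were 3T3-L1, an established mouse preadipocyte line, differentiated into adipocytes in culture. They were left untreated (control), or given forskolin (FSK, an activator of adenylyl cyclase, at 10 µM), TNFα, or both agents together (FSK/TNFα) for 1 h. Chromatin of each of these 4 conditions was precipitated with antibodies to CRTC2, p65 and acetylated lysine 27 of histone H3 (H3AcK27, a mark of active promoters and enhancers). The control and TNFα libraries were called against the input of untreated cells, the FSK and FSK/TNFα libraries against the input of FSK-treated cells, so FSK and the input used cannot be told apart in the peak calls. There was 1 library for each antibody and condition, so no comparison below has a replicate check or a p-value, and a fold difference describes the pair of libraries it was taken from. A ratio against control also shares its control library with every other ratio against control.

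The CRTC2 libraries held 16438040 to 31807394 tags and gave 5188 peaks in control, 11749 with FSK, 19527 with TNFα and 14171 with FSK/TNFα. The p65 libraries held 20490261 to 26904732 tags and gave 214, 2969, 2404 and 4221 peaks in the same order. The H3AcK27 library of FSK-treated cells was the shallowest of the 12 at 9832884 tags, against 25729060 to 27966129 in the other H3AcK27 libraries. As a check of the cell type, H3AcK27 in control cells covered a start site of 3 of 8 adipocyte markers (Pparg, Fabp4 and Lpl, but not Adipoq, Plin1, Cebpa, Cd36 or Slc2a4), of 5 of 5 preadipocyte or fibroblast markers, of 1 of 4 macrophage markers (Csf1r) and of 0 of 3 endothelial markers. Markers of mature adipocytes were thus partly without the mark, beside the full set of preadipocyte markers, and the part of the stage of differentiation in the results below was not tested.

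The following stretches of GRCm38 carry the findings and are printed 5′ to 3′ on the strand of the gene, with every TGACG or its reverse complement CGTCA in capitals. Klf2 upstream is the overlap of a CRTC2 and a p65 locus at chr8:72303724-72303854. Klf3 intron is the centre of a CRTC2 locus called in all 3 treated libraries, at chr5:64806246-64806345. Klf13 upstream is the centre of a promoter locus called with TNFα only, at chr7:63939194-63939293, on the minus strand. Klf9 promoter is the 100 bp before the annotated start of the gene, at chr19:23141126-23141225. Its last bases lie in a CRTC2 locus joined from peaks of all 3 treated libraries. Of these peaks only that of FSK/TNFα covers the printed TGACG. The FSK peak begins past this half-site, and the TNFα peak past the end of the stretch. The 3 remaining stretches are for contrast. Klf15 promoter, at chr6:90462476-90462575, holds the half-site but had no CRTC2 peak, while Klf6 upstream, at chr13:5861105-5861204, and Klf2 promoter, at chr8:72318933-72319032, lie within or reach into loci called in 3 and 4 libraries and hold none.
Klf2 upstream: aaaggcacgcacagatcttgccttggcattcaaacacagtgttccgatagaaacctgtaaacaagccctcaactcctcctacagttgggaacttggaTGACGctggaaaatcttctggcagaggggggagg
Klf3 intron: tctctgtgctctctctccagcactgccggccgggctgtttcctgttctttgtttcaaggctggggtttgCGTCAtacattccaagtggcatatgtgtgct
Klf13 upstream: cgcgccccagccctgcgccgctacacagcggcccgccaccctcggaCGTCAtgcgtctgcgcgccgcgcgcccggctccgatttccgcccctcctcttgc
Klf9 promoter: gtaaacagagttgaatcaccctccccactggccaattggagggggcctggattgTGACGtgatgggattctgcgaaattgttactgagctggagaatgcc
Klf15 promoter: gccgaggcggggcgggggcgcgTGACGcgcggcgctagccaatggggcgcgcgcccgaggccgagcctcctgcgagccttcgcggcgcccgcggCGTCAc
Klf6 upstream: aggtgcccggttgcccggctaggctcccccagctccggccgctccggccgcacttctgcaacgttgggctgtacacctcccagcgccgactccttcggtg
Klf2 promoter: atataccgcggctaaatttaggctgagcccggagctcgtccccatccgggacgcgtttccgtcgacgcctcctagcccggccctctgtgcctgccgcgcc

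In cells treated with FSK, TNFα or both, CRTC2 was found at the promoters of almost all of these genes, whereas in untreated cells it was called at Klf2 alone. In control, 1 of the 10 genes had a CRTC2 peak in a promoter, against 11.8% of all protein-coding genes. With FSK the number was 8 of 10 (Klf2, Klf3, Klf4, Klf5, Klf6, Klf7, Klf9 and Klf10), against 27.4% of all genes. With TNFα it was 9 of 10, Klf13 being the additional gene, against 39.9%. With FSK/TNFα it was again the 8 genes seen with FSK, against 29.1%. The peaks of Klf3 and Klf7 lay at internal start sites. With the annotated 5′ end of each gene alone, the numbers were 1, 6, 7 and 6 of 10, beside 9.43%, 22.8%, 33.6% and 24% of all genes.

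Of all CRTC2 peaks, 44.6% to 50.2% lay in a promoter, by library. In all, 9 of the 10 KLF genes had a start site inside an H3AcK27 region of control cells, which 49.6% of all genes had. Among the 10832 genes with such a start site, a CRTC2 promoter peak was present at 23.6% in control, 54.5% with FSK, 78.9% with TNFα and 57.7% with FSK/TNFα. The corresponding numbers of KLF genes were 1, 8, 9 and 8 of 9. Among these genes the KLF share stood further above the background with FSK and FSK/TNFα than with TNFα, where most acetylated promoters had a peak.

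A promoter peak in all 3 treated libraries was present at 8 of the 10 genes and at 20.8% of all genes. For 7 of the 10 (Klf3, Klf4, Klf5, Klf6, Klf7, Klf9 and Klf10) this went with no promoter peak in control, a pattern shared by 12.5% of all genes. Among genes with an acetylated start site the pattern was present at 7 of 9 KLF genes and at 25% of all. Absence from the control list is not absence of binding, since a peak there needed a score of at least 8, where the score counts tags at distinct positions, and had to pass the filters against input.

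**Figure D1:**
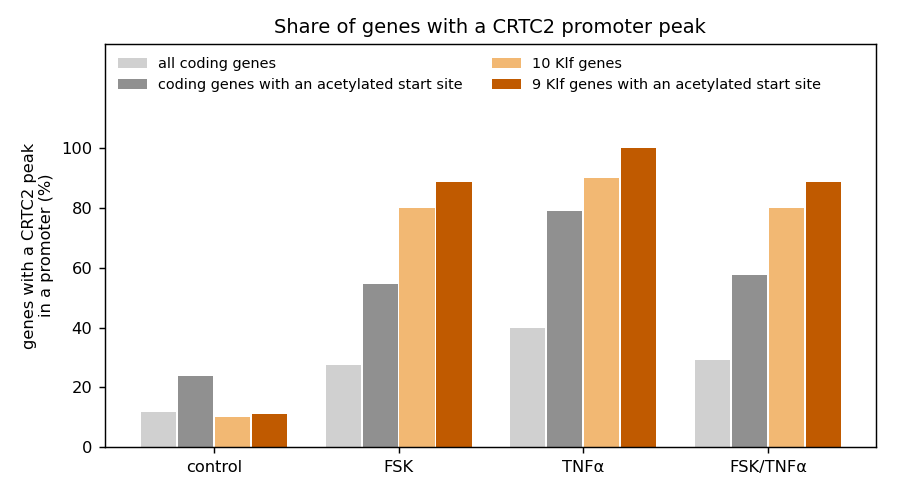
Percentage of genes with at least 1 CRTC2 peak in a promoter in each of the 4 CRTC2 libraries (bars from 0), for all 21853 coding genes, the 10832 coding genes with an acetylated start site in control, the 10 Klf genes and the 9 of them with an acetylated start site. The Klf bars stand below the background bars in control and above them in the 3 treated libraries.

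KLF4 acts at the onset of differentiation, where it joins EGR2 in activating Cebpb. The highest CRTC2 peak in the Klf4 promoter reached 19.5 normalized tags (tags per 10000000 sequenced) with FSK, 19.3 with TNFα and 20.1 with FSK/TNFα, and none was called in control. The levels in the treated libraries were thus nearly equal, but the position of the highest peak was not the same. With FSK the peak lay 390 bp upstream of the nearest start site, with TNFα peaks lay 368 and 19 bp upstream, and with FSK/TNFα they lay 553 and 52 bp upstream. A further CRTC2 locus 9.16 kb upstream had 18.9 normalized tags with FSK and 12.3 with FSK/TNFα and was not called with TNFα.

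KLF5 is induced early by C/EBPβ and C/EBPδ and acts on the Pparg promoter. CRTC2 at the Klf5 start site was called in the 3 treated libraries, at 12.8 normalized tags with FSK, 18.5 with TNFα and 20.4 with FSK/TNFα. Each was the only CRTC2 peak in the Klf5 window, and their midpoints lay within 62 bp of a start site.

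KLF6 promotes differentiation through repression of the preadipocyte gene Dlk1. The Klf6 promoter had a single CRTC2 locus, its peaks centred 320 to 332 bp before the start site, which reached 24.9 normalized tags with FSK, 29.1 with TNFα and 17.3 with FSK/TNFα. It is the locus whose centre is printed above as Klf6 upstream. A second locus about 9 kb from the start site, just past the end of the gene, was called in the same 3 libraries at 11.6, 17 and 6.6 normalized tags. Both loci were highest with TNFα and lowest with FSK/TNFα. Peaks called in 1 library also lay in the gene. TNFα gave one of 15.5 normalized tags 229 bp downstream of the start site, past the promoter as defined. FSK/TNFα gave one of 8.8 normalized tags 2249 bp downstream.

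KLF9 rises later in differentiation and binds the Pparg promoter. At its start site CRTC2 had 11.6 normalized tags with FSK, 11.3 with TNFα and 24.5 with FSK/TNFα. The level with both agents was the highest, which was otherwise seen at the promoters of Klf4 and Klf5 only. TNFα gave another promoter peak of 18.1 normalized tags, 508 bp upstream. Distal peaks were called 6.13, 5.73 and 6.04 kb upstream with FSK, TNFα and FSK/TNFα, with 9.13, 6.42 and 9.43 normalized tags. The FSK and FSK/TNFα peaks overlapped there, and the TNFα peak lay apart.

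KLF13 is an activator of Pparg transcription. Its promoter had peaks in the TNFα library alone, of 15.9 normalized tags 329 bp upstream and of 13.6 normalized tags 69 bp downstream of a start site. An intronic locus 1.04 to 1.06 kb from a start site was called with TNFα at 9.44 and with FSK/TNFα at 11.3 normalized tags. No CRTC2 peak was called within 50 kb of Klf13 with FSK.

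KLF15 acts late and is known for its activation of the glucose transporter gene Slc2a4. Klf15 stood apart from the other 9 genes, with no CRTC2 peak in its promoter in any library and no start site inside an H3AcK27 region in any library. The only CRTC2 peak in its window was called with FSK, 27043 bp upstream, at 11.6 normalized tags. That peak lay nearer to the start site of Cfap100 (at -6736 bp) than to that of Klf15. Its widest H3AcK27 region was centred 40.3 kb downstream in control and 39.8 kb with TNFα. It had 94.6 normalized tags over 4163 bp in control and 40.4 over 2795 bp with TNFα. With TNFα, a separate region of 8.58 normalized tags over 500 bp lay within the stretch that the control region covered. This separate region was nearer to the start site of Aldh1l1. No region was called over that stretch with FSK or FSK/TNFα. An intronic region 4.17 kb from a start site had 54 normalized tags over 2025 bp in control, 32.5 over 1636 bp with FSK and 12.8 over 657 bp with FSK/TNFα, and was not called with TNFα. With TNFα and FSK/TNFα a region of 500 and 647 bp touched a promoter of Klf15 without covering a start site, at 5.72 and 9.33 normalized tags.

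KLF2 keeps preadipocytes undifferentiated and represses Pparg. The Klf2 promoter was the only KLF promoter with a CRTC2 peak in control, and it was called in all 4 libraries, at 11.6 normalized tags in control, 42 with FSK, 45.7 with TNFα and 30.5 with FSK/TNFα. All 4 peaks lay 43 to 68 bp downstream of the start site. The control peak had a score of 9, close to the minimum of 8, while the treated peaks had scores of 34, 37 and 33.

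The treated to control ratio at the Klf2 promoter was 3.62 with FSK, 3.94 with TNFα and 2.63 with FSK/TNFα. Over all promoter loci called in both libraries, the median ratios were 1.62, 2.20 and 1.54, and the shares above 2-fold were 31.9%, 56.9% and 29.5%. Because many tags shared a position, the ratios were also taken from the scores, scaled by the tags expected per peak in each library. These were 3.19 with FSK (95% interval 1.5 to 7.57), 3.52 with TNFα (1.67 to 8.30) and 2.19 with FSK/TNFα (1.02 to 5.19). The intervals are exact (Clopper-Pearson), cover counting error alone and say nothing of the spread between cultures.

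KLF3 represses Cebpa. Its promoter peaks lay at different places in the 3 treated libraries, with 15.2 normalized tags 366 bp upstream of a start site with FSK, 24.9 tags 28 bp downstream with TNFα and 12.3 tags 129 bp downstream with FSK/TNFα. The strongest CRTC2 signal of Klf3 after FSK was in an intron 2.93 kb from a start site, the locus printed above as Klf3 intron. It had 26.8 normalized tags with FSK, 8.69 with TNFα and 26.7 with FSK/TNFα. This order, with TNFα alone the lowest, is the opposite of that at the Klf3 promoter, where TNFα alone gave the highest value.

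KLF7 inhibits adipocyte differentiation. The Klf7 promoter peak had 34.7 normalized tags with FSK, 46.8 with TNFα and 26.1 with FSK/TNFα. The FSK and TNFα peaks overlapped and lay between annotated start sites, 394 bp downstream of the nearest start site to the FSK peak and 385 bp upstream of the nearest to the TNFα peak. With FSK a second peak of 12.8 normalized tags lay 124 bp downstream of a start site.

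KLF10 mediates early TGF-β responses. The Klf10 start site had the highest CRTC2 promoter signal of all 10 genes, 52.5 normalized tags with TNFα, beside 28.6 with FSK and 15.1 with FSK/TNFα. TNFα gave additional promoter peaks of 23 and 17.8 normalized tags, 276 bp downstream and 513 bp upstream of a start site, and FSK/TNFα gave a second of 19.5. Distal loci 23.5 and 53.9 kb downstream were each called in the 3 treated libraries, the latter nearer to the start site of Odf1.

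**Figure D2:**
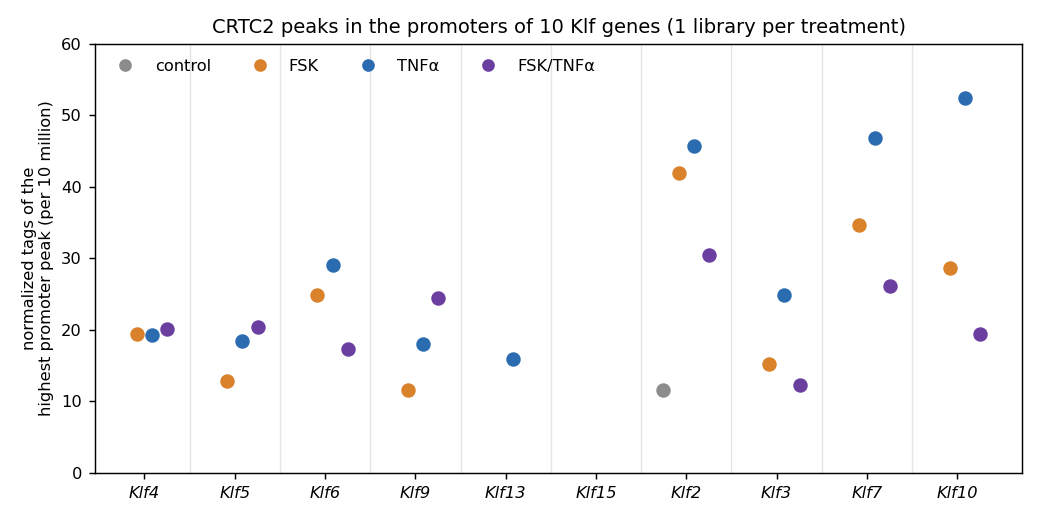
Normalized tags of the highest CRTC2 promoter peak of each Klf gene (vertical axis, tags per 10000000) in the control, FSK, TNFα and FSK/TNFα libraries. A point is 1 peak in 1 library and a missing point is a peak that was not called. Klf2 alone has a control point, at 11.6, and the highest point is Klf10 with TNFα at 52.5.

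Set beside all promoter peaks in the same list, the KLF promoters held peaks of above-median height in the treated libraries. The median of the highest peaks was 22.2 normalized tags over 8 genes with FSK against 15.2 over all promoter peaks, 24.9 over 9 genes against 17 with TNFα, and 20.3 over 8 genes against 13.8 with FSK/TNFα. Taking the highest peak of a gene raises the former value. The number of genes above the list's median was 5 of 8, 8 of 9 and 7 of 8.

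At promoter loci called with both agents and with TNFα alone, 5 of 8 KLF genes had less CRTC2 with FSK/TNFα than with TNFα, though few differences passed counting error. The median ratio of FSK/TNFα to TNFα was 0.631 over 8 genes, from 0.288 at Klf10 to 2.17 at Klf9, beside a median of 0.704 over all promoter loci. In each ratio 1 promoter locus stood for the gene. Another Klf10 promoter locus called in both libraries differed less, with 19.5 normalized tags with FSK/TNFα and 23 with TNFα. The Klf9 ratio leaves out the promoter peak of 18.1 normalized tags called with TNFα only. On the score scale the ratio was 0.348 at Klf10 (95% interval 0.204 to 0.579) and 2.28 at Klf9 (1.13 to 4.96), the 2 genes of 8 whose interval did not include 1. The ratio at Klf4 was 1.24 from normalized tags and 0.879 from scores. The median ratio of FSK/TNFα to FSK was 0.739 over 6 genes, beside 0.959 over all promoter loci, with Klf10 at 0.528 (0.564 on the score scale, interval 0.316 to 0.998). The median ratio of TNFα to FSK was 1.17 over 7 genes, beside 1.34 over all promoter loci. Of those, Klf10 at 1.84 had a score ratio of 1.62 with an interval of 1.01 to 2.65, and the intervals of the other 6 genes included 1.

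p65 was not found at any KLF promoter. The number of genes with a p65 promoter peak was 0 of 10 in control, with FSK, with TNFα and with FSK/TNFα, beside 0.0915%, 0.586%, 0.627% and 1.01% of all genes, so few promoters of any kind had a peak. In the gene body or within 50 kb, a p65 peak was present at 1, 1, 3 and 1 of the 10 genes in these libraries, beside 1.91%, 16.9%, 14.9% and 22.3% of all genes.

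These 8 p65 peaks lay at 5 genes. Each was called in a single library, as were 9162 of the 9469 p65 loci of the whole genome. In control they were peaks of 4.9 and 7.17 normalized tags, 36.0 and 66.3 kb downstream of the Klf9 start site. With FSK they were peaks of 16.4 and 16 normalized tags, 22.7 and 14.9 kb downstream of Klf10. With TNFα they were peaks of 8.92 normalized tags 15.3 kb upstream of Klf2, 10.8 tags 48.7 kb upstream of Klf3 and 5.95 tags 28.0 kb downstream of Klf5. With FSK/TNFα a single peak of 12.7 normalized tags lay 52.2 kb downstream of the Klf5 start site. Each of the 8 had the lowest score of its list, which was 12 in control, 7 with FSK, 8 with TNFα and 7 with FSK/TNFα. Most p65 peaks shared that score, so it does not set these peaks apart. Ranked by score, the peaks with it began 29.0%, 28.9%, 39.2% and 38.2% of the way down the lists, in the same order.

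No locus in the KLF windows held CRTC2 and p65 peaks of the same treatment. Such a locus was present near 0.865% of all genes with FSK, 1.51% with TNFα and 3.89% with FSK/TNFα, so 0 of 10 genes does not set the KLFs apart. Across treatments, the only overlap was upstream of Klf2. There CRTC2 was called with FSK (23.7 normalized tags) and FSK/TNFα (33.6) but not with TNFα, and p65 was called with TNFα (8.92) but not with FSK or FSK/TNFα. The overlap of 131 bp is the sequence printed as Klf2 upstream, and its TGACG lay 10 bp from the centre of the CRTC2 locus. The nearest start site to the FSK peak was that of Gm10282, at 1397 bp, rather than that of Klf2.

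**Figure D3:**
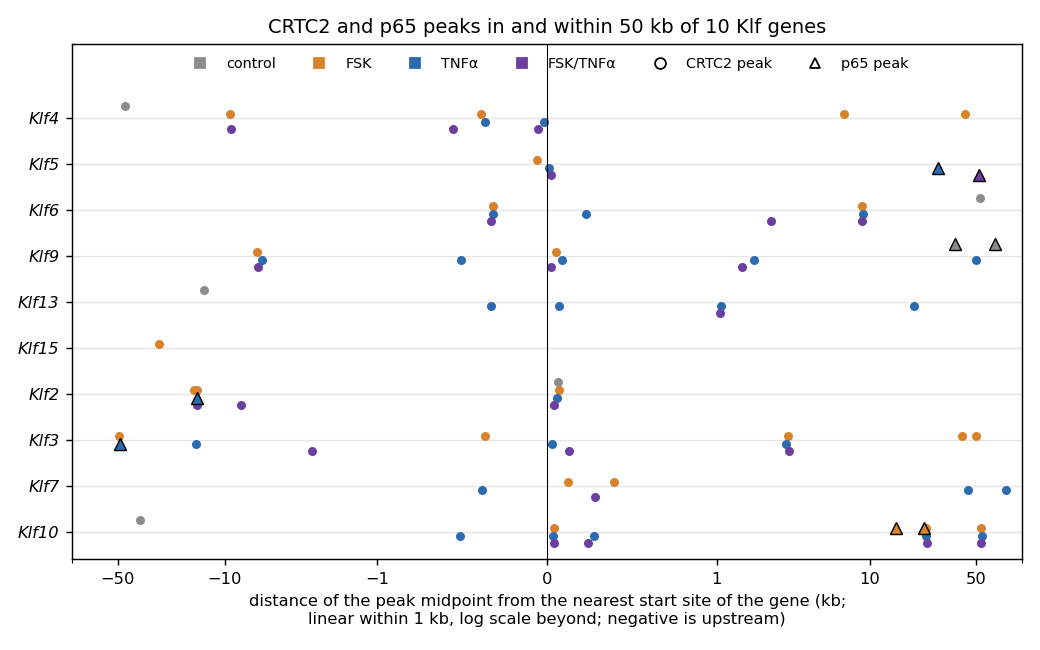
Distance of each CRTC2 peak (circles) and p65 peak (triangles) midpoint from the nearest start site of the Klf gene in kb (linear within 1 kb, log scale beyond), coloured by treatment. Of the 72 CRTC2 points of the treated libraries, 34 lie within 0.553 kb of a start site and 38 farther away, and all p65 points lie 14.9 kb or more away.

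Over the whole windows, CRTC2 gave 5 peaks in control, 23 with FSK, 27 with TNFα and 22 with FSK/TNFα. A CRTC2 peak was present in the gene or within 50 kb of 5, 9, 9 and 9 of the 10 genes, beside 39.2%, 60.4%, 70.3% and 64.5% of all genes. Apart from the peak at Klf2, the control peaks were distal. They lay at Klf4 (45.2 kb upstream), Klf6 (53.0 kb downstream), Klf10 (35.6 kb upstream) and Klf13 (13.6 kb upstream). None of these 4 was called in a treated library. Of the 33769 CRTC2 loci of the whole genome, 23238 were called in 1 library only, so this does not set them apart.

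The 77 CRTC2 peaks joined into 48 loci, 17 in promoters and 31 outside them. Of the promoter loci, 35.3% were called in 3 or 4 libraries, close to the 34.3% of the 11830 promoter loci of all genes. Of the loci outside promoters 12.9% were, against 3.57% elsewhere in the genome. These 4 distal loci were the Klf3 intron locus, the Klf6 locus past the gene end and the loci 23.5 and 53.9 kb downstream of Klf10.

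H3AcK27 covered a start site of 9 of the 10 genes in every list, all but Klf15. Of all genes 49.6% were covered in control, 43.8% with FSK, 49.6% with TNFα and 46.9% with FSK/TNFα. The regions over KLF start sites were broad. Their median width was 7328 bp in control against 2657 bp over all covered genes, and 8 of 9 were wider than that median, the exception being Klf2. The widest was that of Klf9, at 23.1 kb in control, 14.9 kb with FSK, 24.2 kb with TNFα and 13.1 kb with FSK/TNFα, so it was narrower in both libraries with FSK.

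The density of the mark (normalized tags per kb of the region) ran from 35.9 at Klf2 to 185 at Klf3 in control, where the median of all covered genes was 63.6. Klf3 stood at the 99.5th percentile of covered genes, Klf7 (170) at the 99.2nd, Klf10 (143) at the 97.9th and Klf6 (138) at the 97.3rd, and Klf2 at the 13.1st. Klf2 thus had the least of the mark of the 9 covered genes beside the highest CRTC2 promoter signal after FSK.

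Klf5 was the gene whose acetylation differed most with TNFα. Its density was 45.4 normalized tags per kb in control, 52.6 with FSK, 91.1 with TNFα and 77.4 with FSK/TNFα, so both libraries with TNFα were above both without. The ratio to control was 2.01 with TNFα, at the 99.7th percentile of all genes, and 1.71 with FSK/TNFα, at the 96.1st. A density more than 1.5-fold that of control with TNFα was seen at 1 of 9 KLF genes and at 3.73% of all genes. The width of the region differed little, from 2770 to 3290 bp. The tags within it were 132.6 in control and 288.9 with TNFα per 10000000.

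With FSK, the median ratio of density to control was 0.859 over the 9 genes, beside 1.05 over all genes. Klf4 and Klf5 were above control, at 1.15 and 1.16, and Klf2, Klf3, Klf9 and Klf13 were at 0.856 to 0.920. The lowest ratios were those of Klf6, Klf7 and Klf10. For Klf10 the densities were 143 in control, 92.4 with FSK, 159 with TNFα and 117 with FSK/TNFα. The FSK to control ratio was 0.644 at Klf10, 0.673 at Klf6 and 0.716 at Klf7, and with FSK/TNFα the ratios at these genes were 0.815, 0.806 and 0.859 beside a median of 1.08. The FSK library of H3AcK27 had the fewest tags by the deposited totals, and both libraries with FSK were called against the other input. The part of either in these ratios was not tested. With TNFα the 9 genes had a median ratio of 1.05, beside 1.07 over all genes.

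**Figure D4:**
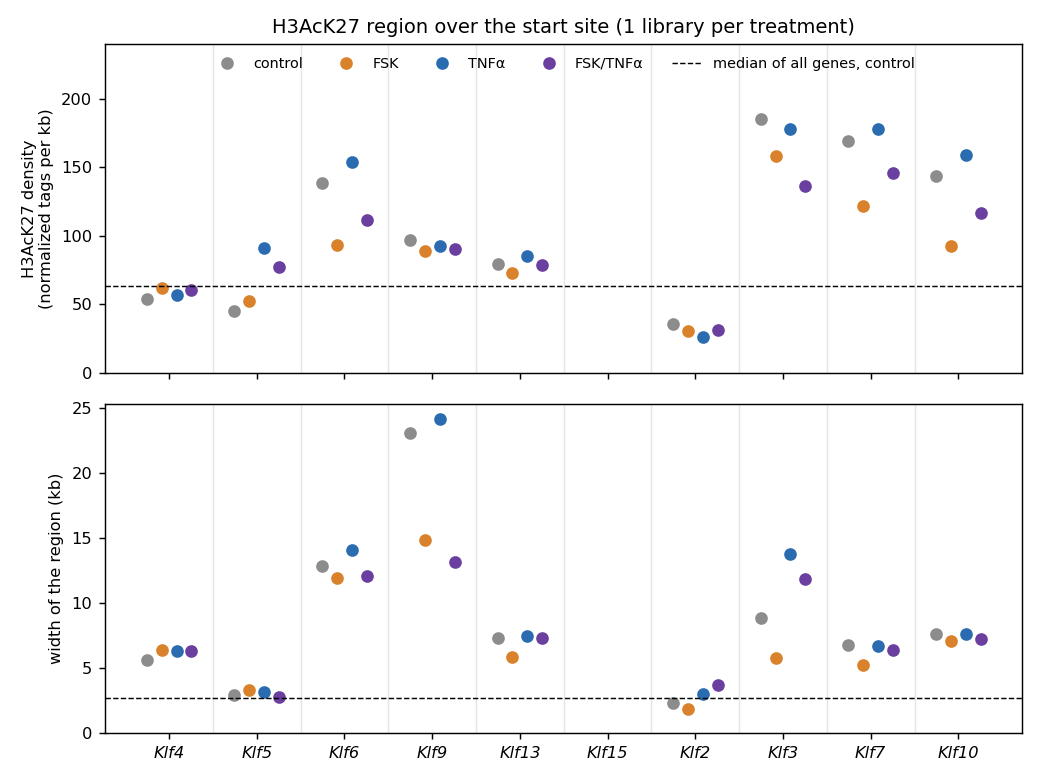
H3AcK27 region over the start site of each Klf gene, with density in normalized tags per kb above and width in kb below, by treatment. Dashed lines are the medians of all covered genes in control (63.6 per kb and 2657 bp). Klf15 has no region, Klf5 is highest with TNFα at 91.1 per kb, and Klf9 has the widest regions.

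All promoter CRTC2 peaks of the KLF genes, 1 in control, 9 with FSK, 14 with TNFα and 10 with FSK/TNFα, overlapped an H3AcK27 region of the same treatment, as did 98.2%, 95%, 98% and 97.1% of the promoter peaks of all genes. Of all CRTC2 peaks in the KLF windows, 1 of 5, 18 of 23, 23 of 27 and 19 of 22 did so, beside 59.6%, 84.1%, 74.5% and 82.6% of the peaks in the whole lists.

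Promoter sequences of 8 of the 10 genes were present in the RefSeq table of GRCm38.p6 (250 bp before to 50 bp after a start site), all but Klf5 and Klf10. They were GC-rich, with a median of 70.7% G and C against 52.7% over the 32851 promoters of the table, and held a median of 30.5 CpG dinucleotides against 7. On either strand, TGACG was present in 6 of 8 (Klf2, Klf3, Klf4, Klf9, Klf13 and Klf15) and in 20.8% of all. Of the half-sites in these promoter sequences, only that of Klf9 lay inside a CRTC2 locus, in the part covered by the FSK/TNFα peak alone. Those of the other genes lay outside every CRTC2 locus. The half-site of Klf9 began 46 bp upstream of the start site and that of Klf13 56 bp upstream, while Klf15 had a pair, 78 and 6 bp upstream. The full palindrome TGACGTCA was in none of the 8 and in 1.79% of all, the AP-1 element TGACTCA in none and in 5.20%, and the NF-κB elements (GGAAA or GGAAT directly followed by TTCCC) in none and in 0.155%. A match of TGACGTCA also counts as TGACG.

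In windows of 200 bp centred on CRTC2 loci, TGACG was found at 10 of the 41 loci of these 8 genes (24.4%) and at 17.1% of 33768 loci genome-wide. TGACTCA was found at 5 of the 41 (12.2%) and at 10.4% of all, and the NF-κB elements at 0 of the 41 and at 0.255%. TGACG lay 1 bp from the centre of the Klf13 locus called with TNFα and 21 bp from that of the Klf3 intron locus. The Klf15 promoter, with its pair of half-sites, had no CRTC2 peak, and the Klf6 locus, called with all treatments, had no half-site within its window.

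The other members of the KLF and SP family, 16 genes, had a CRTC2 promoter peak at 2 genes in control, 4 with FSK, 5 with TNFα and 4 with FSK/TNFα, and 7 of 16 had an acetylated start site in control. The 5 genes with a promoter peak in any library were Sp1, Sp2, Sp3, Klf16 and Klf11. Sp1 had 11.6 normalized tags in control, 21.9 with FSK, 21.2 with TNFα and 18.9 with FSK/TNFα. Sp3 had 7.94, 18.3, 21.9 and 19.8 in the same order. Sp2 was not called in control and had 20.7, 31 and 20.4 in the treated libraries. Klf16 was likewise called in the treated libraries only, at 9.73, 18.5 and 7.86, and Klf11 with TNFα only, at 7.93.

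Among 16 genes of the adipogenic cascade, a CRTC2 promoter peak was present at 1 in control, 6 with FSK, 9 with TNFα and 8 with FSK/TNFα, and a p65 promoter peak at 0 in every library. Cebpd, which acts early beside Cebpb, was not called in control and had 66.9 normalized tags with FSK, 45 with TNFα and 43.7 with FSK/TNFα, more with FSK than any KLF promoter. Cebpb, the partner of Cebpd, was called with TNFα (25.7) and FSK/TNFα (29.2) and not with FSK. Creb1, which encodes CREB, had 19.1 in control, 54.1 with FSK, 44.2 with TNFα and 35.8 with FSK/TNFα. Ebf1 and Egr2 were called in the 3 treated libraries, Ebf1 at 17.6, 21.9 and 11.9 and Egr2, the partner of KLF4, at 11.6, 21.5 and 14.8.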

How the data were processed

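ChIP-seq of CRTC2, p65 and H3AcK27 was measured in 3T3-L1 adipocytes under 4 conditions, with 1 library each (9832884 to 31807394 tags). Per the submitters' processing notes, the tools were STAR and HOMER and the build mm10, with versions not given in the sources used here. The deposited lists hold HOMER peaks with a normalized tag count (signal per 10000000 tags), a score, which per the file headers counts at most 1 tag per position, and a fold ratio of the tag count over input. The authors kept factor peaks at least 4-fold over input and over the local 10 kb, at an FDR of 0.001. In 6 lists the deposited total tag counts appeared scaled to the input, so the normalized signal was used. Peak positions are given as in the lists, whose headers do not say whether starts count from 0.

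Peaks were assigned to genes of GENCODE M21 in Python 3.11.15 with pandas 2.3.3 by an overlap of at least 1 bp. Peaks of an antibody that overlapped between treatments were joined into loci, and ratios were taken only where both libraries had a call. Interval code was tested on simulated data. Members and lists were chosen with earlier results of these data known. Named genes were the 10 members, at most 5 of each other list with a CRTC2 promoter peak by highest score, and the gene nearest to a described peak. With 1 library per condition no test was made. Alternatives were 8-fold over input, lists of equal length, other promoter and window extents, the annotated 5′ end only, input subtraction and, added after the values were seen, scores in place of tags.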

Additional observations from a re-analysis of the deposited data

Results flagged for a closer look

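At 4 places the TNFα ratio ran in opposite directions without and with FSK, comparing TNFα with control and FSK/TNFα with FSK. With 1 library per condition these differences were not tested. At the Klf2 promoter the CRTC2 signal was 3.94-fold that of control with TNFα, and 0.726-fold that of FSK with FSK/TNFα. On the score scale the second ratio was 0.684 with a 95% counting interval of 0.411 to 1.14. Over all promoter loci the medians of these 2 ratios, 2.20 and 0.959, also ran in opposite directions, so this does not set Klf2 apart. Klf2 was the only KLF gene with a CRTC2 promoter ratio to control. The H3AcK27 density at the Klf2 start site was 0.729-fold that of control with TNFα and 1.01-fold that of FSK with FSK/TNFα. The densities at Klf4 (1.05 and 0.975) and Klf9 (0.955 and 1.02) stayed within 5 percent of no difference on both sides. Over all genes the median density ratios were 1.07 and 1.04. The share of all genes with opposite density ratios is not given here.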

How the results depend on the processing

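Of 92 alternative values, 74 stayed within 1.5-fold of the reported value, 18 moved further and 0 reversed. No paired analysis was possible because each condition had 1 library and no result came from a test. With peaks of at least 8-fold over input, KLF genes with a CRTC2 promoter peak numbered 0 in control (7.81% of all genes), 7 with FSK (17%), 9 with TNFα (34.4%) and 7 with FSK/TNFα (17.8%). CRTC2 window peaks were then 2 in control and 12 with FSK/TNFα, and p65 window peaks 1 in control and 1 with FSK. With lists cut to equal length (5188 for CRTC2, 214 for p65), the promoter count was 1, 6, 8 and 7 genes beside 11.8%, 16.9%, 21.6% and 15.9% of all. CRTC2 window peaks were 11, 13 and 11 with FSK, TNFα and FSK/TNFα, and p65 window peaks were 0, 0 and 0. Within 10 kb, CRTC2 peaks were 1 in control and 14 with FSK, and p65 peaks 1, 1, 0 and 0 in the 4 libraries. Counting only peaks nearest to the KLF start site left 1 p65 peak in control. Each of these settings only excludes peaks, so its counts could fall or stay but not rise. The 0 counts of co-bound loci could not change, since each alternative run for them only removed peaks or loci. They are nonetheless among the 74 values that stayed, so they say nothing of robustness. The 9 acetylated genes fell to 6 with FSK and with FSK/TNFα at 8-fold over input, which is at the 1.5-fold limit, and to no fewer elsewhere. Scores from 7 to 48 limit the precision of single peaks.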
